A study of Rattus norvegicus with 6 samples.

Results

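The sites described here were the CpG cytosines of rat chromosomes that were read almost only as unmethylated in hippocampal DNA. A CpG is a cytosine followed by a guanine, the sequence that carries nearly all DNA methylation in mammalian tissue. A cytosine was taken when it was read 10 or more times in both reduced representation bisulfite sequencing (RRBS) libraries and when its pooled level, the methylated reads of both libraries over all reads of both, was under 10%. Of 1214971 chromosomal CpG cytosines read at that depth in both libraries (the tested sites), 787643 met the rule (64.8%) and 427328 did not. Each strand of a CpG was counted as a site of its own, and mitochondrial DNA was left out.

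The study set out to compare the hippocampus of Sprague-Dawley rats dosed with the polycyclic aromatic hydrocarbon benzo[a]pyrene (B[a]P) and that of rats that got the vehicle, corn oil. The treated group received 2 mg/kg B[a]P in corn oil each day by oral gavage, and the control group received corn oil by the same route. The library of the treated group is called the treated library below. All rats are labelled as 7 weeks of age, and 7 weeks of gavage are stated for the RNA-seq samples. Each group had 1 RRBS library and 1 RNA-seq library, and the labels do not say how many animals a library holds. There was thus no replicate check of any difference between the libraries. Tests on reads compared these 2 libraries, not the treatments, and intervals cover counting error only, since reads without molecular identifiers are not independent molecules.

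In vertebrate genomes most CpGs are methylated, and those that are not cluster in short CpG-rich stretches, the CpG islands. Many islands lie at gene starts, where proteins with a CXXC domain bind unmethylated CpGs and DNA methyltransferases are kept away. Promoters of housekeeping genes are typically unmethylated in every tissue, whereas promoters of germ line genes with CpG islands and one parental copy of imprinted control regions are known to be methylated in somatic cells. Markers of the labelled tissue were found in the RNA-seq libraries. Slc17a7, the vesicular glutamate transporter of excitatory neurons, was at 399 FPKM (an RNA level scaled for gene length and library depth) in the treated library and 360 FPKM in the control. Prox1, a marker of dentate granule cells, was at 10.5 and 8.15 FPKM, and Cdx2, an intestinal factor, was at 0.0106 FPKM in the treated library and listed at 0 in the control. Genes of other tissues were low but not all near 0: Alb, of liver, was at 2.35 and 1.73 FPKM and Myh6, of heart, at 0.764 and 0.654 FPKM.

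The promoter sequences of 6 genes show what the sites look like. They are the 250 bases before the gene start from RefSeq on the GRCr8 assembly, written 5′ to 3′ in the direction of the gene, and capitals mark CpGs of which at least 1 cytosine was in the unmethylated set. Siah1 and Ahr are shown for their dense CpGs, Trak2, Aldh9a1 and Kcnf1 because a site in them differed between the libraries, and Dazl as a methylated promoter without any such site. Each window was placed on the files' own positions by its pattern of cytosines.
Siah1: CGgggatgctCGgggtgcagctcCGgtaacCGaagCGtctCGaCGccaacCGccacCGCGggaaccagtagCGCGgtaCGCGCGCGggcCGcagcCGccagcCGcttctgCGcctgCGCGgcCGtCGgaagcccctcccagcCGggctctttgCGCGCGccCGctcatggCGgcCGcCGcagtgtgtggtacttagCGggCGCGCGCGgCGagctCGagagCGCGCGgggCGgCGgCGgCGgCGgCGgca
Ahr: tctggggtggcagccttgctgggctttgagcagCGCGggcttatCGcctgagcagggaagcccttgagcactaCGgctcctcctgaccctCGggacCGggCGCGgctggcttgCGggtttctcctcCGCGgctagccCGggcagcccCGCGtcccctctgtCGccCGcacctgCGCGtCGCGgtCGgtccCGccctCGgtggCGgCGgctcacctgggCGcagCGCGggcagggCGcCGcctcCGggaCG
Trak2: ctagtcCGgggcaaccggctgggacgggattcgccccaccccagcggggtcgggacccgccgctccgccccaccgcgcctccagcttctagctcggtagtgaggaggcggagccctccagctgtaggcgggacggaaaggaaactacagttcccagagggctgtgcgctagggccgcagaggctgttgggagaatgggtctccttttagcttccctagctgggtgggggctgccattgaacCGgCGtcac
Aldh9a1: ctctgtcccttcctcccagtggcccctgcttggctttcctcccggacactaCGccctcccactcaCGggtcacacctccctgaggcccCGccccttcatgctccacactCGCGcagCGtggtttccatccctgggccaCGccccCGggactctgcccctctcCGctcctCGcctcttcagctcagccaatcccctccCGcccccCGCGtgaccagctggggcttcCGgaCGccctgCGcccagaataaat
Kcnf1: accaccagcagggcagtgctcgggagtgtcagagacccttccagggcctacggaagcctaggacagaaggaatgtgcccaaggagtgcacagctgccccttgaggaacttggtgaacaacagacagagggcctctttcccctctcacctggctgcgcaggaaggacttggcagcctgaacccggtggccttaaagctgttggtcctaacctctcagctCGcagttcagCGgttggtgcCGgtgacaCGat
Dazl: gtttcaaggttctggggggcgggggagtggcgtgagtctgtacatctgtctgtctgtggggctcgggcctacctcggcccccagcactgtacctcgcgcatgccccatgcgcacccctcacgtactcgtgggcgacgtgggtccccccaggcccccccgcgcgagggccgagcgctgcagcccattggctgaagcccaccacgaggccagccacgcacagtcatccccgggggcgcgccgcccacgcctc
The Siah1 sequence, of a RING-type ubiquitin ligase gene, lay at chr19:32381213-32381462 of the files' positions (rn5, + strand). All 48 of its CpGs were tested and all 48 had an unmethylated cytosine. The Ahr sequence, of the receptor that binds B[a]P, lay at chr6:64624106-64624355 (- strand), and all 32 of its CpGs had one. In the sequences of Trak2 (chr9:65570017-65570266, - strand), Aldh9a1 (chr13:90223710-90223959, + strand) and Kcnf1 (chr6:52193837-52194086, - strand), 3 of 3, 16 of 16 and 4 of 5 tested CpGs had an unmethylated cytosine. In the Dazl sequence (chr9:11574775-11575024, + strand) 4 of 23 CpGs were tested and none had one.

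Most of the sites were unmethylated in the strict sense rather than merely under the limit. The median pooled level was 0.337%, 70.3% of the sites were under 1%, and 10.1% (79590 sites) lay between 5% and 10%. No methylated read was seen in either library at 347700 sites (44.1%). Tested CpG sites fell into a low and a high class with little between: 58.3% of all tested sites had a pooled level under 5%, 6.55% lay from 5% to 10%, and no 5-point bin between 20% and 65% held more than 1.13%. The limit of 10% cut the tail of the low class, with 9990 sites from 9% to 10% and 8247 from 10% to 11%. The member closest to the limit among these, chr1:13505004, was at 9.99% pooled (8.67% of 15852 reads in the treated library and 10.7% of 29949 in the control), and chr14:33126220, just outside, was at 10% of 540 pooled reads.

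**Figure D1:**
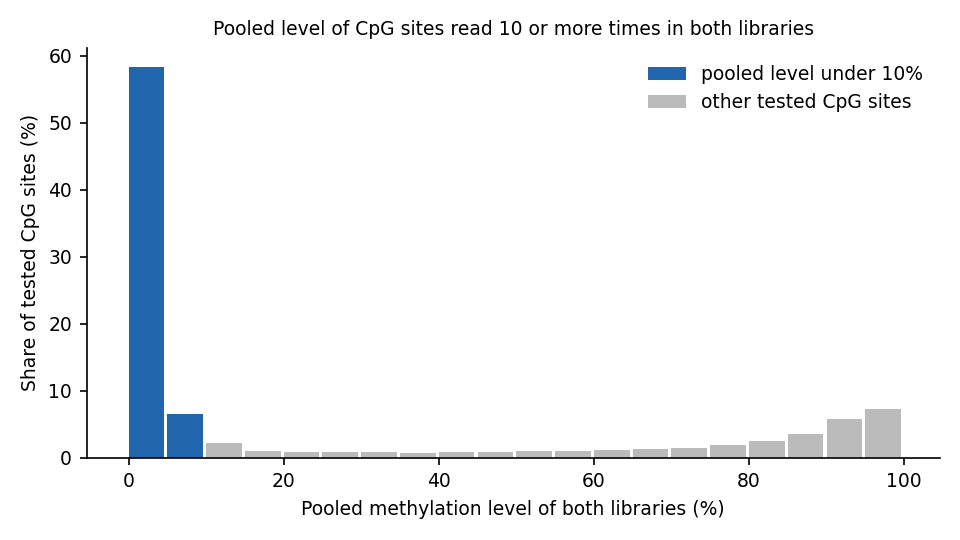
Share of the 1214971 tested CpG sites (y axis, %) in each 5-point bin of pooled methylation level (x axis, %), with the unmethylated set in blue and the other tested sites in grey. The first bin holds 58.3% of the sites, the second 6.55% and the last 7.27%.

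The level used to choose the sites was pooled, so the values of each library are given next as a description. Summed over the 787643 sites, 895111 of 72046229 reads were methylated in the treated library, a level of 1.24% (Wilson 95% interval 1.24 to 1.245%). In the control library 1361595 of 97048541 reads were methylated, a level of 1.40% (1.40 to 1.41%). The median site was at 0% in both libraries, and 96.6% of the sites were under 10% in each library taken alone. At or over 10% were 14938 sites in the treated library and 11816 in the control. The other tested sites stood far apart, at 68.6% in the treated library and 65.3% in the control.

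The same measure at cytosines outside CpGs gives a level to compare with. On the chromosomes it was 0.613% in the treated library and 0.639% in the control at CHG cytosines, where H is any base but G. At CHH cytosines it was 0.667% and 0.685%. Inside the unmethylated regions defined below, CHG cytosines were at 0.332% and 0.387%. The summed level of the unmethylated CpGs was thus above that of non-CpG cytosines in both libraries. Mitochondrial CpGs were at 1.51% in the treated library and 1.86% in the control.

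Coverage differed between the libraries more at these sites than elsewhere. The median was 64 reads in the treated library and 93 in the control, a ratio of 1.45, against 46 and 48 reads at the other tested sites. A site with no methylated read was more frequent in the library with fewer reads: 62.5% of the sites in the treated library (62.4 to 62.6%) and 56.9% in the control (56.8 to 57.0%). Reduced by calculation to 10 reads per site, the expected shares were 89.2% and 88.8%, at a depth where most sites show none in either library. Sites of high coverage were also more often unmethylated: 47.5% of tested sites with 20 to 40 summed reads were in the set, and 87.9% of those with 640 or more. Over all reads the 10th percentile of coverage was 24 in the treated library and 19 in the control, so a single methylated read moved a thinly read site by several points.

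Sites that reached 10 reads in 1 library only could not enter. Positions with fewer reads are not listed, so such sites may have had some reads in the other library. There were 225914 such CpG sites in the treated library and 35574 in the control, and 40.9% of each were under 10%.

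The summed level was 0.16 points lower in the treated library. Of the sites, 201199 were higher in that library, 237954 lower and 348490 equal, and the standard deviation of the difference over sites was 2.34 points. The libraries lay within 1 point of each other at 67.5% of the sites, within 5 points at 94.5% and within 10 points at 99.1%. The size depended on how sites were weighted. Averaged over sites without weight for depth it was -0.05 points, and over the 708053 sites under 5% pooled it was -0.01 points.

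The summed level was lower in the treated library on 20 of 21 chromosomes, and 2 stretches of very deep coverage carried the extremes. On chromosome 1 the difference was -0.447 points, but 136 sites between positions 13499185 and 13509670, with median coverage of 2662.5 reads in the treated library and 9479 in the control, were at 6.22% and 7.15%. Without them chromosome 1 was at -0.119 points and the whole set at -0.116 points. Those 136 sites held 1.19% of all reads of the set. Chromosome 19, the exception, had a difference of 0.0364 points. There 51 sites between positions 67045600 and 67064820 were at 8.37% in the treated library and 2.12% in the control, and without them chromosome 19 was at -0.113 points. With both stretches left out, all 21 chromosomes were lower in the treated library, with differences from -0.161 to -0.0907 points. Leaving out stretches was decided after their values were seen. The share of tested sites that were unmethylated ranged from 54.6% on chromosome 12 to 68.1% on chromosome 8.

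Unmethylated sites lay close together. The median distance from one to the next was 3 bp, against 23 bp among the other tested sites, and 96.1% of the distances were at most 100 bp. With both strands of a CpG summed, the median was 8 bp. RRBS reads only short fragments rich in CpGs, so these distances describe what was covered. On the 2 strands of a CpG the state was nearly always shared. In 370027 CpGs with both cytosines tested, both were unmethylated in 283511, neither in 78437 and 1 in 8079. Where a partner was not in the set, it was mostly just over the limit: 93.8% of such partners were under 20%. A partner at 80% or more was found for 61 sites.

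The state of a CpG was shared with its neighbours well beyond the next few bases. With strands summed, 59.3% of tested CpGs were unmethylated. Of the nearest neighbours of an unmethylated CpG at 2 to 10 bp, 98.2% were unmethylated, against 7.63% next to another CpG. At 201 to 500 bp the shares were 83.1% and 16.5%, at 1001 to 2000 bp 34.0% and 12.4%, and beyond 10000 bp 19.1% and 13.6%. Of 454759 unmethylated CpGs with a tested CpG within 100 bp on each side, 433173 (95.3%) had unmethylated neighbours on both sides and 3318 (0.730%) on neither. The 3318 lone CpGs stood higher, with a median pooled level of 5.55%, against 0.374% for CpGs between unmethylated neighbours.

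**Figure D2:**
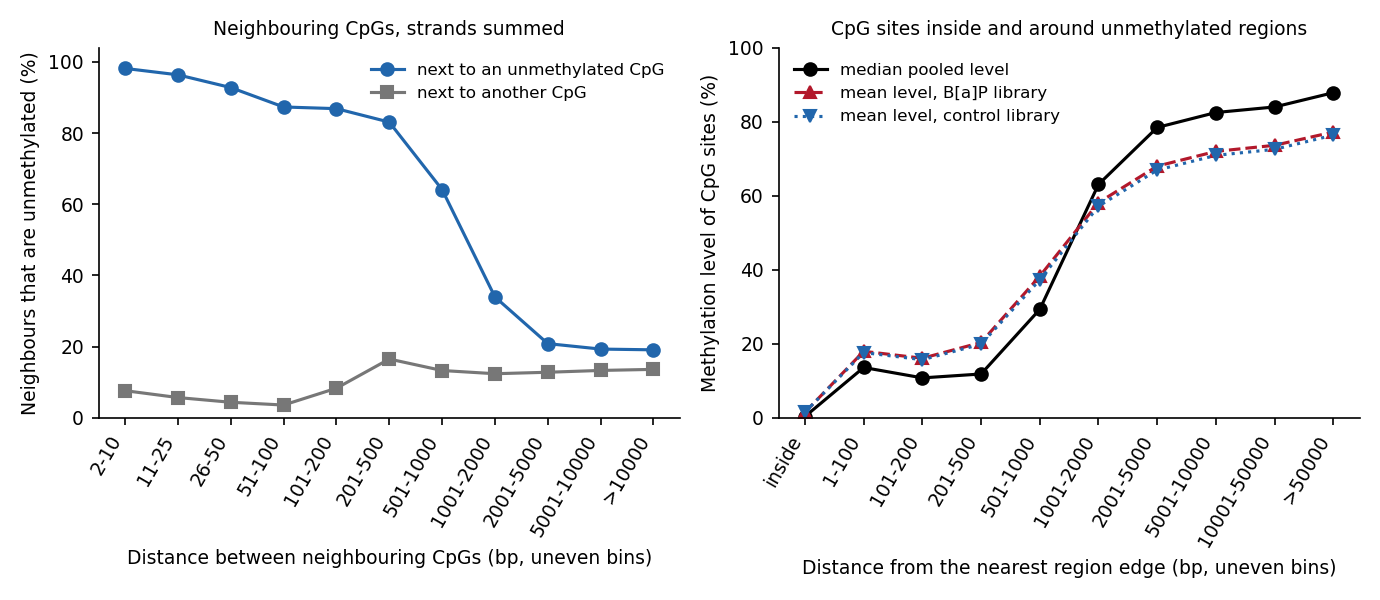
Left, share of neighbouring CpGs that were unmethylated (y axis, %) by distance (x axis, bp, uneven bins), next to an unmethylated CpG (blue circles) or another CpG (grey squares). Right, median pooled level (black) and mean level in the treated (B[a]P, red) and control (blue) libraries of CpG sites inside and around unmethylated regions by distance from the region edge, rising from a median of 0.347% inside to 87.9% beyond 50000 bp.

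Sites at most 100 bp apart were joined, and 21532 regions of 5 or more sites held 97.7% of the set. A region had a median of 23 sites over 183 bp, and the largest had 342 sites over 1971 bp. In 67.2% of the regions every tested CpG site was in the set. Outside, levels climbed with distance. The median pooled level was 11.8% at 201 to 500 bp from an edge, 29.3% at 501 to 1000 bp, 63.1% at 1001 to 2000 bp and 87.9% beyond 50000 bp. The first 100 bp hold no site of the set by construction. Mean levels in the treated and control libraries were 20.4% and 19.9% at 201 to 500 bp and 77.2% and 76.4% beyond 50000 bp. Summed over reads, the levels were 21.1% and 22.4% at 201 to 500 bp and 29.1% and 34.5% at 501 to 1000 bp, lower in the treated library, where the means over sites were higher in it (20.4% and 19.9%, then 38.3% and 37.3%).

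The regions with the most sites lay at gene starts in 4 of 5 cases. The largest, chr7:41153143-41155113, held the placed window of Atp2b1, a plasma membrane calcium pump, and its level was 0.803% in the treated library and 1.03% in the control. The region chr15:90889320-90890905 (319 sites, 0.747% and 0.889%) held the window of Kctd12, an auxiliary subunit of GABA-B receptors. The region chr7:63027435-63028729 (311 sites, 0.646% and 0.818%) held that of Lemd3, a protein of the inner nuclear membrane. The region chr3:14389734-14391541 (292 sites, 0.738% and 0.915%) held that of Ier5l. These 4 lay close together in level, each a little lower in the treated library. The region chr6:144683198-144684986 (302 sites) held no placed window and was at 2.08% and 2.05%. Of the longest regions, chr15:65858504-65860443 (1940 bp, 275 sites) also held none and was at 2.39% and 2.84%. The regions at Tmem121b (chr4:220114370-220116248, 1.18% and 1.29%) and at Pcbp1, a poly(C)-binding protein gene (chr4:182898925-182900750, 0.829% and 0.790%), were 1879 and 1826 bp long.

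The gene starts that could be placed held a larger share of unmethylated sites than the rest of the tested sites. RefSeq promoter windows of 300 bases, from 250 before to 50 after a start, were placed on the files' positions through the order and context of their cytosines, and 8572 windows of 7772 genes found 1 place on the chromosome RefSeq gives. They held 166128 tested CpG sites, of which 159928 (96.3%) were unmethylated, against 59.8% of the tested sites elsewhere. Placement needed 20 or more covered cytosines, and most of the 33469 windows of the RefSeq table were not placed. Any tested sites at those starts count as elsewhere. Sites in placed windows made up 20.3% of the set. Their summed level was 0.891% in the treated library and 1.07% in the control, below the 1.33% and 1.49% of the sites elsewhere. Along the window the share in the set was even, from 96.0% at 201 to 250 bases before the start to 96.2% in the 50 bases after it.

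There were 7439 windows with 5 or more tested sites, and for each gene the window with the most tested sites was used. The counts thus describe 1 start per gene. Of 6800 genes with such a window, 4570 (67.2%) had unmethylated sites only, 2015 had some others and 215 (3.16%) had no unmethylated site. RNA levels from the same study's RNA-seq, which the choice of sites did not use, were found for 5976 genes. These included 4080 of the 4570 genes with unmethylated sites only but just 102 of the 215 with none. The values below describe those genes only. The median was 6.53 FPKM in the control library (6.94 in the treated library) for genes with unmethylated sites only and 0.0663 FPKM (0.0751) for those with none. At least 1 FPKM was reached by 85.0% of the former and 17.6% of the latter in the control library. Read the other way, 50.8% of genes under 0.1 FPKM had unmethylated sites only, and 82.4% of genes at 100 FPKM or more. A window without any unmethylated site belonged to 16.7% of the genes under 0.1 FPKM, 0.155% of those from 10 to under 100 FPKM and none of the 125 genes at 100 FPKM or more. An unmethylated window was thus frequent among unexpressed genes too. Genes are not independent replicates, and no test was made of these shares.

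**Figure D3:**
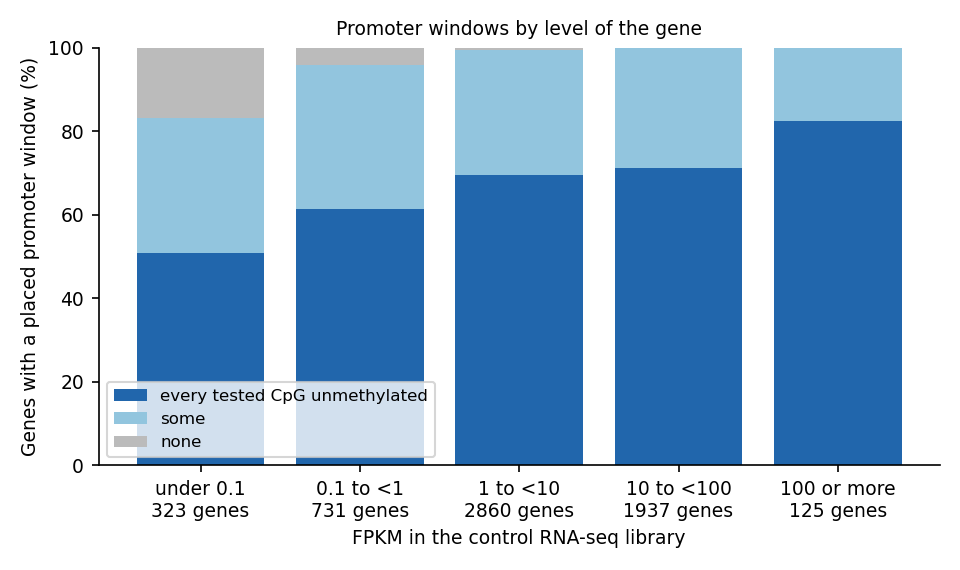
Genes with a placed promoter window (y axis, %) by RNA level in the control library (x axis, FPKM bins with the number of genes), split into windows in which every tested CpG, some or none was unmethylated. Windows with unmethylated CpGs only rise from 50.8% to 82.4% of the genes, and windows with none drop from 16.7% to 0.

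Sequence differed between the classes in the same windows. The ratio of observed to expected CpGs was 0.840 at the median in windows with unmethylated sites only, 0.519 in windows with none and 0.392 over all 33469 windows of the RefSeq table. The sequence GGGCGG on either strand, the GC box bound by Sp1, was in 73.8% of the windows with unmethylated sites only, 27.0% of those with none and 33.1% of the table. GCGTG on either strand, the core of the element bound by the aryl hydrocarbon receptor, was in 58.8%, 34.0% and 29.7%. TATAAA was in 3.92%, 13.0% and 14.2%. The windows of all 6800 genes had a median ratio of 0.835, with GGGCGG in 72.9%, GCGTG in 57.1% and TATAAA in 4.24%. Windows with unmethylated sites only, 67.2% of these, were thus close to this covered background, and those with none stood apart. CCGG was in 99.9% of the 6800 windows and 51.4% of the table. The table was thus not matched to what RRBS covered, and differences from it can reflect coverage. GGGCGG and GCGTG each contain a CpG, so their shares move with CpG content. A match describes letters in a window and is not a bound site.

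Windows were also counted by gene group. No test between groups was made, and the lists were chosen with values of these data known. Of 21 proteasome subunit genes with a window, 18 had unmethylated sites only and 3 had some others. For subunits of respiratory complex I the counts were 13 and 5 of 18, and for circadian clock genes 6 and 3 of 9. Of 35 ribosomal protein genes with a window, from 216 listed, 25 had unmethylated sites only, 6 had some others and 4 had none. The 4 were Rpl38l1, Rps4y2, Rpl39l1 and Rps7l1, whose windows were between 49.3% and 97.0% methylated in the 2 libraries. No RNA value was found for Rpl38l1 and Rps7l1. In the treated and control libraries RNA was at 2.53 and 2.86 FPKM for Rps4y2 and 0.449 and 1.78 FPKM for Rpl39l1. The background is the 67.2% of all genes with unmethylated sites only and the 3.16% with none.

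Markers of neurons, astrocytes and oligodendrocytes were among the genes with unmethylated windows. Windows were found for 7 of 40 neuronal, 2 of 14 astrocyte and 5 of 17 oligodendrocyte genes listed. The 7 neuronal genes had unmethylated sites only (5) or mostly (2), among them Uchl1, a neuronal ubiquitin hydrolase (14 of 14 sites, 2.04% in the treated library and 2.34% in the control), and Reln, the reelin of Cajal-Retzius cells and interneurons (21 of 21, 0.267% and 0.391%). The glutamate transporter gene Slc1a2 of astrocytes (20 of 20, 0.638% and 0.575%) and the myelin genes Cnp (29 of 29, 1.05% and 1.03%) and Mal (20 of 20, 1.26% and 1.12%) were unmethylated as well. In the oligodendrocyte list only Cspg4 stood higher, at 9.48% and 9.57% with 7 of 9 sites in the set. No microglia gene of the list had a window with enough sites.

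Of 7 windows of Hox genes, the patterning genes of the body axis, 5 had unmethylated sites only and 2 had some others, Hoxd12 (6 of 7 sites) and Hoxd1 (51 of 55). RNA was at most 0.0670 FPKM for the 6 with a value. Hoxd9 (48 of 48 sites) was at 1.75% in the treated library and 1.86% in the control, and its RNA was listed at 0 and at 0.0177 FPKM. Hoxd13 (13 of 13) was at 2.02% and 2.39%, with 0.0230 and 0.00867 FPKM. The 7 Hox windows had a median of 2.02% and 2.09%, above the 0.847% and 1.04% of all windows with unmethylated sites only. Immediate early genes, which neurons switch on with activity, had unmethylated sites only in 6 of 11 windows and mostly in 5, with Egr1 at 1.56% and 1.88% (18 of 18 sites) and Fosl2 at 0.606% and 0.739% (52 of 52).

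Windows without an unmethylated site were also found among germ line and imprinted genes. Of 6 germ line genes 4 had no unmethylated site: Ddx4, a germ cell RNA helicase (92.4% in the treated library and 92.2% in the control), Dazl, a germ cell RNA-binding protein (92.3% and 98.1%), Tuba3a (94.5% and 98.4%) and Piwil1, a piRNA-binding protein (62.0% and 72.1%). Tdrd1 had 1 unmethylated site of 48, whereas Tdrd6 had 47 of 50 (2.43% and 3.26%). Both are Tudor proteins of the germ line, and Tdrd6 was at 0.0226 and 0.0183 FPKM. Among 9 imprinted genes, Plagl1 was at 43.3% and 43.8% and Peg10 at 50.5% and 66.1% with no unmethylated site, and Igf2r had 23 of 39 sites in the set (10.3% and 9.30%). The other 6 had unmethylated sites only or nearly so, such as Gnas (28 of 28) and Igf2 (17 of 18). No unmethylated site was found in 3 windows of 10 or more sites whose gene reached 10 FPKM: Pcdhga8 (39.9 FPKM in the control), Usp19 (17.9) and Tenm3 (12.9).

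Genes of the response to B[a]P and of methylation itself were in the set. Ahr, with 72 of 74 sites, was at 0.558% of 11651 reads in the treated library and 0.793% of 15258 in the control. Cyp1b1, a cytochrome P450 that oxidises B[a]P and is a target of that receptor, had all 14 sites in the set, at 0.908% and 1.26%. Tiparp (43 of 44 sites) was at 1.11% and 1.08%, and Ptges3, a cochaperone of the receptor complex (57 of 57), at 0.720% and 0.952%. The differences of the 4 windows were between -0.357 and 0.0362 points. Windows were found for 4 of the 15 receptor pathway genes listed. RNA was at 1.99 and 1.74 FPKM for Ahr and 1.73 and 1.20 FPKM for Cyp1b1 in the treated and control libraries. For Ptges3 it was at 56.2 and 49.9 FPKM, and for Tiparp, the other way, at 4.92 and 5.58 FPKM. Of 11 genes for methylation and CpG binding, 8 had unmethylated sites only, including Tet3 (20 of 20, 0.838% and 0.783%), an enzyme that oxidises methylcytosine, and Kdm2b, a CXXC protein (34 of 34, 0.657% and 0.815%).

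Within promoter windows, 1 sequence set most of the sites above 5% apart. A CpG inside CCGG, the sequence cut by MspI, the enzyme usual in RRBS, was 11.1% of the unmethylated sites there (17798 of 159928) but 90.9% of those between 5% and 10% (10892 of 11985). No source used here names the enzyme. The CCGG sites had a summed level of 5.14% in the treated library and 6.12% in the control, and 3.0% of them had no methylated read in either. The other 142130 sites were at 0.427% and 0.455%, close to the non-CpG cytosines in the regions, and 54.6% of them had no methylated read. CCGG sites carried 56.7% of the methylated reads of these windows in the treated library and 62.1% in the control, from 9.83% and 10.9% of the reads. They were also less often in the set, 84.5% of tested CCGG sites against 98.0% of others, and 2412 of the 3526 other tested sites in windows of the mixed class were CCGG sites under 20%. In 1732 of these 2015 windows (86.0%) nothing but such sites kept the window from being unmethylated throughout. The origin of the level at CCGG was not tested.

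The size of the difference between the libraries followed the same split. In windows the difference over the whole set was -0.179 points. At CCGG sites the difference was -0.98 points, with 9511 sites lower and 7702 higher in the treated library. At the others it was -0.0274 points, with 36042 lower and 28440 higher. More sites were thus lower than higher in both kinds. Outside windows no sequence could be read, so the split could not be made there.

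**Figure D4:**
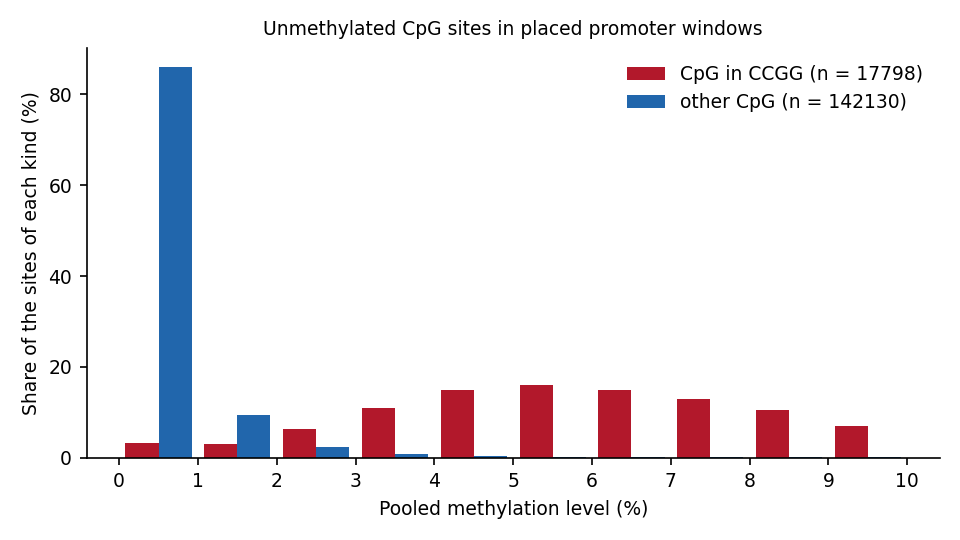
Pooled methylation level (x axis, 1-point bins, %) of unmethylated CpG sites in placed promoter windows, as a share of the 17798 sites in CCGG (red) and of the 142130 other sites (blue) (y axis, %). Of the other sites 86.0% are under 1%, while the CCGG sites spread over all bins with the highest share, 16.0%, from 5% to 6%.

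Whole windows differed little between the libraries. In the 4570 windows with unmethylated sites only, the median difference was -0.14 points with a standard deviation of 0.57, and 91.9% lay within 1 point. Among windows of 10 or more sites, the largest difference upwards was at Tmem223 (13 sites), where 89 of 1651 reads (5.39%) were methylated in the treated library and 39 of 3210 (1.21%) in the control. The largest downwards was at Eif2b2, a subunit of translation initiation factor eIF2B (11 sites), with 25 of 1906 reads (1.31%) and 63 of 1470 (4.29%). RNA of Tmem223 was at 25.2 and 23.0 FPKM and that of Eif2b2 at 14.5 and 14.3 FPKM.

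Single sites were compared by a 2-sided Fisher exact test of methylated and unmethylated reads, with Benjamini-Hochberg adjustment over all 1214971 tested sites. A site was called at an adjusted p under 0.05 and a difference of 10 points or more. Of all tested sites 0.182% were called, and of the unmethylated set 87 sites (0.011%), against 0.498% of the others. Higher in the treated library were 46 (0.0852% of all tested sites were called higher) and lower were 41 (0.097% called lower). Since a pooled level under 10% leaves little room for such a difference, the low share follows in part from the rule. All 46 sites called higher had fewer reads in the treated library, with medians of 72 and 141. For the 41 called lower the medians were 143 and 130, and 65.9% had more reads in the treated library. The pooled level weighs each library by its reads, so the rule leaves more room where the higher library has fewer reads. By adjusted p alone 152 sites of the set were called (0.0193% of the set, against 0.194% of all tested sites). Of these, 84 were higher (0.0107%, against 0.0893% of all tested sites) and 68 lower (0.00863%, against 0.104%). By 10 points alone 3521 sites of the set were higher (0.447%, against 4.97% of all tested sites) and 3898 lower (0.495%, against 3.56%). At an unadjusted p under 0.05 were 6763 sites, 0.859% of the set and 2.49% of all tested sites.

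Of the 87 called sites, 30 had no other site of the set within 100 bp, the partner on the other strand left aside. Of the rest, 44 lay in short runs and 13 were neither. The largest difference upwards was at chr17:17818972, with 23 of 44 reads methylated in the treated library and 6 of 464 in the control (52.3% and 1.29%, Fisher exact adjusted p = 7.04e-19). The 6 other tested CpG sites within 100 bp were at 72.5% and 72.7%, and none was in the set. The largest downwards were at chr14:24951942 and chr7:124668356, both at -50 points. The first had 0 of 60 reads in the treated library, which allows a share of up to 5%, and 7 of 14 in the control (50%, Fisher exact adjusted p = 0.00143). Its neighbours were at 88.8% and 91.6%. The second had 0 of 59 reads, which allows up to 5.08%, and 7 of 14. Of the 10 sites named with the largest difference in each direction, 7 of those higher and 8 of those lower had no other unmethylated site within 100 bp, the partner included. Over the whole set, 5120 sites (0.650%) stood alone within 100 bp, the partner left aside. The called share was 0.586% of the lone sites and 0.00728% of the rest. The lone sites had a median pooled level of 4.72%, against 0.337% for the set. By adjusted p alone, the called share of the set was 0.000181% of sites under 1% pooled and 0.230% of those from 9% to 10%, so the shares of lone and other sites are not at matched levels.

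Runs of called sites held 44 of the 87, in 10 clusters with at most 500 bp between called sites. In 9 of the clusters the sites were higher in the treated library, and they had 2 to 5 called sites. At chr2:537516-537554, 4 sites were at 14.6% of 766 to 769 reads each in the treated library and 1.28% of 782 to 783 in the control (largest Fisher exact adjusted p = 2.44e-20). At chr1:188741852-188742112, 5 sites were at 14.3% and 0.280%, and at chr14:47850117-47850125, 3 sites of 28 reads in the treated library and 100 in the control were at 33.3% and 1.67%. In the clusters on chromosomes 2 and 14 the read number was nearly or exactly the same at each site. Sites this close can share reads and are not independent.

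The only cluster lower in the treated library was the largest, 19 of the 41 sites called lower. It lay at chr9:65570259-65570369, from position -353 to -243 relative to the start of Trak2, an adaptor of mitochondrial transport in neurites, and 79 to 189 bases downstream of the start of Stradb, a pseudokinase partner of the kinase Lkb1, which is transcribed the other way. All 19 tested sites of these 111 bp were called. They were at 10.6 to 16.2% in the control library (129 to 189 reads a site) and at 0 to 2.69% in the treated library (142 to 190 reads), where 11 had no methylated read, which allows at most 1.58 to 2.11%. Adjusted p in the Fisher exact test was between 2.83e-06 and 0.0107. The levels on both strands were alike. Read numbers were nearly the same at the sites of each strand, 186 to 190 or 142 to 143 in the treated library. Sites this close can share reads and are not independent. The change was abrupt, and read numbers changed at the same place: the first site after the run had 138 reads in the treated library and 75 in the control. The 50 sites of the set in the next 260 bp of the region had a median of 0% in both libraries, and none was called. The first CpG of the run is the first in capitals in the Trak2 sequence above. Without this run 22 sites were called lower. RNA of Trak2 was at 34.9 FPKM in the treated library and 29.3 in the control, and that of Stradb at 9.56 and 9.03. Whether the difference stands for the treatment, for the animals or for the libraries cannot be told apart with 1 library a group.

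**Figure D5:**
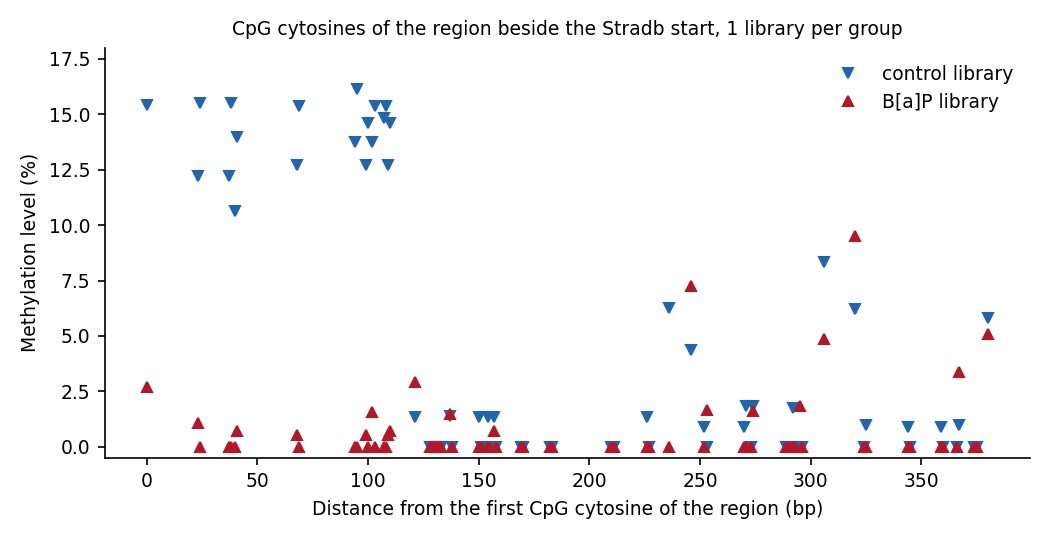
Methylation level (y axis, %) of each CpG cytosine of the set in the region beside the Stradb start, by distance from its first site (x axis, bp), in the control library (blue) and the treated library (red). The 19 sites of the first 111 bp are at 10.6 to 16.2% in the control and at most 2.69% in the treated library, and the sites after them overlap.

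Of the 87 called sites, 34 (39.1%) lay within 5000 bp of a placed window, 19 of them in the chromosome 9 run, and 5 (5.75%) inside one. Of the whole set 55.9% lay within that distance and 20.3% inside, and of all tested sites 39.2% and 13.7%. The site in the Kcnf1 window, 12 bases before the start of this gene for a modulatory potassium channel subunit, had 0 of 87 reads in the treated library, which allows up to 3.45%, and 6 of 25 in the control (24%, Fisher exact adjusted p = 0.0394). The site in the window of Aldh9a1, an aldehyde dehydrogenase of carnitine synthesis, had 3 of 207 reads (1.45%) and 37 of 321 (11.5%), 105 bases before the start. The site in the window of Lyplal1, a lysophospholipase-like enzyme, lay 10 bases after the start with 1 of 164 reads (0.610%) and 16 of 115 (13.9%). These 3 were lower in the treated library, as was the Trak2 site. The fifth, in the overlapping windows of Speg and LOC102550477, was higher, with 10 of 42 reads (23.8%) against 0 of 99, which allows up to 3.03%. In the sequences printed above, the called sites of the Kcnf1, Aldh9a1 and Trak2 windows lie in CCGG. They thus belong to the kind of site that carried the larger difference in windows. Why they differed was not tested. Close to windows, 2 sites downstream of the start of Bnip2 were at 14.7% and 24% in the treated library with no methylated read among 107 and 112 in the control, and 2 sites of Uap1, on both strands of 1 CpG 51 and 52 bases after its start, were at 20% and 22.2% against 0.794% and 0.

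Of the 21532 regions, 13951 were lower and 7502 higher in the treated library. Of 17094 regions with 10 or more sites, 92.7% lay within 1 point and 98.6% within 2, and 10 were 5 points or more higher and 5 as much lower. The largest difference upwards was in chr7:719606-719962, where 221 of 1966 reads (11.2%) were methylated in the treated library and 37 of 1978 (1.87%) in the control, with 25 of 25 sites higher and none called singly. The next were chr2:537286-537626 (9.11% and 1.38%), which holds the cluster of 4 named above, and chr12:344706-344805 (11.9% and 4.66%). The largest downwards was chr3:176356524-176356684, with 12 of 678 reads (1.77%) and 66 of 431 (15.3%) and 15 of 15 sites lower, at a median of 40 and 27 reads a site. After it came chr20:4165159-4165265 (3.88% and 10.1%) and the chromosome 9 region. These regions were picked by their differences, and apart from the last none held a placed window.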

How the data were processed

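Per the labels, RRBS and RNA-seq libraries were made from hippocampus, 1 per group. The deposited methylation tables hold, per the file headers, methylated and unmethylated read counts and the level in percent for each cytosine, and every deposited row had 10 or more reads. Per the submitters' processing notes, bcl2fastq was used, and the builds rn5 and rn6 are both listed without a role. On chromosome 1 the positions reach 290084085, which is beyond its end in rn6. They are therefore taken as rn5 and printed unchanged. No source used here names the aligner or caller. The deposited mRNA values were taken as FPKM from their range, since no label names the unit.

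The 2 tables were joined by position, and 422 cytosines with differing context were left out. Python 3.11.15, pandas 2.3.3, numpy 2.4.6, scipy 1.17.1, numba 0.67.0 and matplotlib 3.10.9 were used. The Fisher test, checked on simulated data, is conditional on the summed methylated reads and both coverages, the values the rule used. Windows were placed by runs of 10 cytosines, at least 20 cytosines and 95% fitting contexts. Of 5000 reversed windows 3 were placed, against 1369 of the same unreversed. No coordinate was converted between builds, and 97.9% of windows with 1 place were on the chromosome RefSeq gives.

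Sites and regions were named by rule: the 10 called sites with the largest difference each way, the 5 regions with the most sites and the 5 longest, the 3 with the largest difference each way, and sites next to the limit. The sites, gene groups (ribosomal, proteasome, complex I, Hox, neuronal, astrocyte, oligodendrocyte, microglia, germ line, immediate early, receptor pathway, methylation, clock, imprinted) and window examples were chosen with earlier results of these data known. Alternatives to coverage, limit, strands, joining distance and call rule were computed. lncRNA and miRNA tables were not used here.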

Additional observations from a re-analysis of the deposited data

How the results depend on the processing

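The number of sites was 414223 with 50 reads in both libraries and 501329 with strands summed, which count each CpG once. The difference of summed level (-0.161 points) was negative in every alternative run: -0.148 with 50 reads, -0.00711 with a limit of 5%, -0.173 with 20%, -0.184 with the mean of the library levels as the limit, -0.15 under 10% in each library, -0.132 without the deepest 1% of sites, -0.173 with strands summed and -0.0485 as a mean of site levels. Chosen after seeing the data, leaving out the deep stretch of chromosome 1 gave -0.116 and that of chromosome 19 -0.166. Sites called higher (46) numbered 2 with a limit of 5%, 205 with 20%, 79 at 5 points, 10 at 25 points, 84 by adjusted p only and 3521 by 10 points only. Sites called lower (41) numbered 0, 162 and, in the same order without the 5-point rule, 5, 68 and 3898, and 22 without the chromosome 9 run. The 0 sites called lower with the 5% limit are by adjusted p in the Fisher test and 10 points together. A pooled level under 5% leaves very little room for 10 points, so this count follows in part from the rule. Median spacing was 8 bp with strands summed. The number of regions stayed within 1.5 times of 21532 in all 4 alternatives. No paired analysis was possible because each group has 1 RRBS library. With 1 library a group no difference has a replicate check, and at 10 to 20 reads a level of a few percent could not be told from 0.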
